A study of Homo sapiens with 28 samples.

Results

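H3K4me3 peaks of human embryonic stem cells sorted in late G1 were compared with those of the same cells sorted in early G1. The 25653 late G1 peaks and 24757 early G1 peaks were matched by an overlap of at least 1 bp and merged into 27948 regions. A region with peaks in both lists is called kept, one with late G1 peaks alone gained, and one with early G1 peaks alone lost. The 2 libraries belong to a series of 28, with 16 ChIP libraries (4 marks in 4 fractions), 4 inputs and 8 4C libraries.

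Fucci cells make coloured proteins that are destroyed at set points of the cycle, so that living cells can be sorted by phase. The late G1 fraction is labelled KO2 and the early G1 fraction DN; the S fraction is labelled AzL and the G2/M fraction AzH. All fractions came from cells in a defined medium free of serum and feeder cells, with FGF2 at 8 ng/ml, Activin a and Heregulin b1 each at 10 ng/ml, and Longr3 IGF-1 at 200 ng/ml. The labels name 1 cell line and give neither the number of cultures nor the number of cells. Each fraction had 1 library per mark, so no test between fractions was possible, and intervals cover counting error only.

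H3K4me3, trimethylation of lysine 4 of histone H3, is laid down by the SET1 and MLL complexes and lies at the starts of active genes and of genes held poised. In embryonic stem cells many starts of developmental genes carry it together with H3K27me3, the mark of Polycomb repressive complex 2, a pattern known as bivalent. H3K27ac marks active promoters and enhancers.

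The early G1 list stood apart from the other H3K4me3 lists in how the heights of its peaks were distributed. For regions with peaks in both members of a pair of lists, the interquartile range of log2 height ratios was 1.16 for late over early G1, 0.85 for S over early G1 and 1.04 for G2/M over early G1. It was 0.57 for S over late G1, 0.63 for G2/M over S and 0.60 for G2/M over late G1. These pairs share libraries and are not independent. The early G1 peaks were also the widest, with a median of 675 bp, against 475 to 550 bp in the other fractions. The number of reads behind each list is unknown here, and its part in the differences below was not tested.

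Of the 27948 regions, 17367 were kept (62.1%, exact 95% interval 61.6 to 62.7), 4842 were gained (17.3%, 16.9 to 17.8) and 5739 were lost (20.5%). Kept regions on chromosomes 1 to 21, where the lists give heights, numbered 16282. Their median height was 57.8 in late G1 and 116 in early G1, in the deposited units; how these were scaled is not stated in the labels. Heights were therefore divided by these medians. A relative height of 1 is that of the middle kept region of its list, and ratios below are late over early G1 on a log2 scale. A region was called where this ratio passed 2-fold; with 1 library a fraction, such a call is a size and not a test.

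The ratios of relative height had a median of 0.04, with quartiles of -0.49 and 0.67; a median near 0 follows from the division by list medians. Relative height was at least 2-fold higher in late G1 at 2477 kept regions (15.2%) and at least 2-fold lower at 962 (5.91%). This excess of higher regions turns with the scaling: with heights as deposited, where the median ratio was -0.97, 1.87% were at least 2-fold higher and 48.6% at least 2-fold lower. A comparison of higher with lower below holds for relative heights. In the pairs of lists without early G1, between 1.12% and 4.43% of regions were at least 2-fold higher and between 1.78% and 2.63% at least 2-fold lower.

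**Figure D1:**
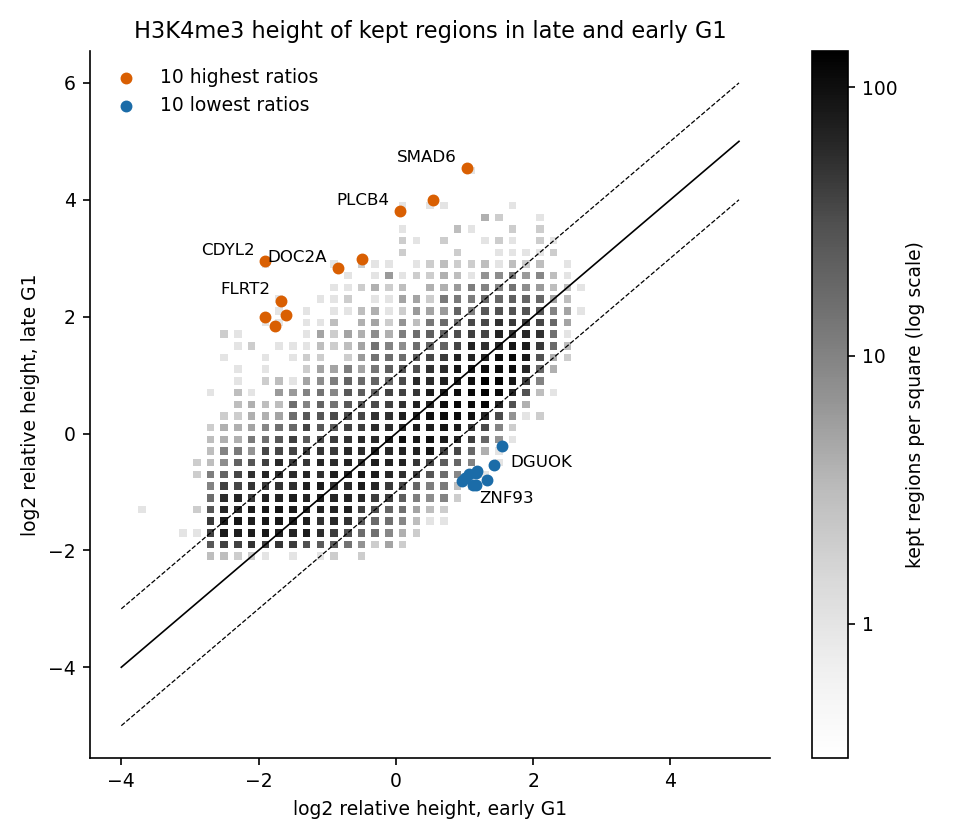
Each grey square holds kept H3K4me3 regions by their log2 relative height in early G1 (horizontal) and late G1 (vertical), shaded by number on a log scale; the solid line is equality and the dashed lines are 2-fold. The 10 highest ratios (orange) and 10 lowest (blue) among the taller regions (mean height at or above the median) lie beyond the dashed lines; SMAD6 is the tallest of them in late G1, at 23.3.

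Low regions and tall regions differed in the direction of the ratio. Kept regions were put in 10 equal bins by mean log2 relative height. In the lowest bin the median ratio was 0.69, and 90.5% of regions were above 0. It was -0.01 in bin 5, -0.27 in bins 8 and 9, and 0.00 in the tallest bin. Among the taller regions, those whose mean log2 relative height was at or above the median, 9.24% were at least 2-fold higher and 6.82% at least 2-fold lower. Mean height is formed from both heights, so these are descriptions of the lists. Heights of peaks on chromosomes 1 to 21 had a 5th percentile of 16.0 in late G1 and 18.8 in early G1, in deposited units. The medians used for the division were 57.8 in late G1 and 116 in early G1. The lowest listed peaks thus stood nearer to that median in late G1 than in early G1. How far this sets the ratios of low regions was not tested.

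The 10 highest ratios among the taller regions spanned relative heights of 3.60 to 23.3 in late G1 and 0.266 to 2.05 in early G1, and 8 of them lay at a known gene start. Genes are named from their known positions on hg19, not from an annotation file, and only where that position is well known. The highest ratio lay at the start of CDYL2, a chromodomain protein that binds methylated histone H3 (chr16:80837001-80838375). Its relative height was 7.76 in late G1 and 0.266 in early G1, a 29.1-fold difference. The late G1 peak was 1375 bp wide, against 400 bp in 2 pieces in early G1.

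At FLRT2, which encodes an adhesion and guidance protein of the cell surface, relative height was 4.84 in late G1 and 0.313 in early G1, with a ratio of 3.95 (chr14:85997601-85998725). At ADAM12, a membrane-bound metalloprotease, it was 3.99 in late G1 and 0.267 in early G1, with a ratio of 3.90 (chr10:128076676-128077250). Both promoters stood far below the median of the kept regions in early G1. PLCB4, a phospholipase C that acts downstream of G protein-coupled receptors, had 14.0 in late G1 and 1.04 in early G1, a 13.4-fold difference (chr20:9048426-9050600; ratio 3.75, or 2.52 where the heights of the 2 lists are matched by rank). DOC2A, a calcium sensor of synaptic vesicle release, had 7.12 in late G1 and 0.555 in early G1 (ratio 3.68). PAOX, a polyamine oxidase, had 4.06 in late G1 and 0.329 in early G1 (ratio 3.63). PRKAR1B, a regulatory subunit of protein kinase A, had 3.60 in late G1 and 0.295 in early G1 (ratio 3.61).

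SMAD6 was the tallest of these promoters. It encodes an inhibitory SMAD that dampens BMP signalling. Its relative height was 23.3 in late G1 and 2.05 in early G1, an 11.4-fold difference (ratio 3.51, or 1.68 with ranks matched), while its width was 6100 bp in late G1 and 6125 bp in early G1 (chr15:66994576-67000800). Height and width thus did not move together there. The remaining pair of the 10 had no well-known gene start, at chr4:24472726-24474875 (7.89 in late G1, 0.713 in early G1) and chr2:11622251-11624175 (16.0 in late G1, 1.45 in early G1; ratio 3.46, or 2.07 with ranks matched). The chromosome 2 place is one where H3K27me3 and H3K27ac peaks overlapped.

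The lowest ratios were at promoters of another kind, among them 3 of zinc finger genes on chromosome 19. ZNF93, a KRAB zinc finger repressor of LINE-1 elements, had a relative height of 0.577 in late G1 and 2.52 in early G1, with a ratio of -2.13 (chr19:20011526-20013025). ZNF738 had 0.689 in late G1 and 2.69 in early G1, with a ratio of -1.97 (chr19:21541651-21542975). ZNF682 had 0.623 in late G1 and 2.24 in early G1, with a ratio of -1.85 (chr19:20149301-20150425). All 3 stood below the median of the kept regions in late G1 and above it in early G1.

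CDC25C, the phosphatase that activates CDK1 at the entry into mitosis, had 0.540 in late G1 and 2.19 in early G1 (ratio -2.02, chr5:137666501-137668250). SCLT1, a protein of the centriole's distal appendages, had 0.587 in late G1 and 2.02 in early G1 (ratio -1.78). PARP2, a poly(ADP-ribose) polymerase of DNA repair, had 0.568 in late G1 and 1.95 in early G1 (ratio -1.78). The other named genes of this set serve mitochondria. ERAL1, which helps to assemble the small mitochondrial ribosomal subunit, had 0.642 in late G1 and 2.27 in early G1 (ratio -1.82). DGUOK, a mitochondrial deoxyguanosine kinase, had 0.865 in late G1 and 2.93 in early G1 (ratio -1.76). Those without a name lay at chr6:27486426-27487400 (ratio -2.05) and chr19:37808101-37809625 (ratio -1.76).

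The promoters of 4 of these genes are shown because they let the letters of high and low ratios be read side by side. They are the first 2 genes by rank in each set with a single entry in the RefSeq table (GRCh38.p14), from 250 bases before to 50 after the gene start, 5′ to 3′. Capitals mark each CG, the dinucleotide whose density is known to go with H3K4me3. ADAM12 (chr10:126388428-126388727, minus strand) and SMAD6 (chr15:66701986-66702285, plus strand) are from the highest ratios, and ZNF93 (chr19:19900696-19900995, plus strand) and ERAL1 (chr17:28854766-28855065, plus strand) from the lowest.
ADAM12: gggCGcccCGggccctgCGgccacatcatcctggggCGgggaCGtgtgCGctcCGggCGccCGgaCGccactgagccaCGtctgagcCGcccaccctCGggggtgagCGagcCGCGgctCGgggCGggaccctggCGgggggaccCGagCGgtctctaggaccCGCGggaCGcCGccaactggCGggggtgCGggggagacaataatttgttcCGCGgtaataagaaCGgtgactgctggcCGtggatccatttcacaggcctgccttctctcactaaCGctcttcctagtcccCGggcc
SMAD6: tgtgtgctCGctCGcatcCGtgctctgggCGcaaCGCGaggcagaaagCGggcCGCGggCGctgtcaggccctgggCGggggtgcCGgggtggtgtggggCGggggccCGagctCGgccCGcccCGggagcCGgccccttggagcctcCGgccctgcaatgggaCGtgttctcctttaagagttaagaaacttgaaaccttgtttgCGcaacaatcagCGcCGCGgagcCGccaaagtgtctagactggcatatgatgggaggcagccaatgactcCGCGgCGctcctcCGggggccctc
ZNF93: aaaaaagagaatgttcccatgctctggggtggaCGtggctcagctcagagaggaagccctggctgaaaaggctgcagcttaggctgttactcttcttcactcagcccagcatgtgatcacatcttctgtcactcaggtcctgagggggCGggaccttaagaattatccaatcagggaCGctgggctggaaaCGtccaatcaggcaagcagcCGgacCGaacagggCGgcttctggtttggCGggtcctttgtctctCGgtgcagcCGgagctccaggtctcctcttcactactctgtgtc
ERAL1: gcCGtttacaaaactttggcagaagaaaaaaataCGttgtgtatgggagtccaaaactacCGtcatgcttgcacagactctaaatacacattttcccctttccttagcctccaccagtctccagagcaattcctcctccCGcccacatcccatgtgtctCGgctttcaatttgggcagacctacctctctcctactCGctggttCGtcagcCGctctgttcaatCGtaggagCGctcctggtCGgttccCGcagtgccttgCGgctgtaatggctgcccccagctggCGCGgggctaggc
ADAM12 holds 33 CG and SMAD6 29, against 10 in ZNF93 and 15 in ERAL1. The median over the 35116 promoters of the table is 14 CG in 300 bases, with quartiles of 4 and 28. The GC content is 71.0% for ADAM12 and 68.0% for SMAD6, against 56.0% for ZNF93 and 54.3% for ERAL1; these 4 promoters say nothing of the other regions.

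The S and G2/M lists, which took no part in choosing these regions, give their heights later in the cycle. Here each height was divided by the list's median over the 15181 regions with peaks in all 4 lists. CDYL2 had 0.240 in early G1, 7.09 in late G1, 4.52 in S phase and 8.87 in G2/M. SMAD6 had 1.85 in early G1, 21.3 in late G1, 5.59 in S phase and 17.7 in G2/M. Early G1 was the lowest of the 4 fractions at 10 of the 10 regions with the highest ratios, and late G1 was the highest at 6 of them. The choice by late over early G1 favours this order. These 10 regions spanned 1.86 to 10.6 (S) and 2.75 to 17.7 (G2/M), above the early G1 range of 0.240 to 1.85.

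Among the 10 lowest ratios, early G1 was the highest of the 4 fractions at 10 and late G1 the lowest at 10. ZNF93 had 2.28 in early G1, 0.528 in late G1, 0.921 in S phase and 0.666 in G2/M. CDC25C had 1.98 in early G1, 0.494 in late G1, 1.27 in S phase and 0.988 in G2/M. The 10 regions spanned 1.76 to 2.64 (early G1), 0.494 to 0.790 (late G1), 0.577 to 1.41 (S) and 0.579 to 0.988 (G2/M). At these regions the S values lay between the G1 fractions, and none of them reached the early G1 range. The choice by late over early G1 favours this order here too.

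**Figure D2:**
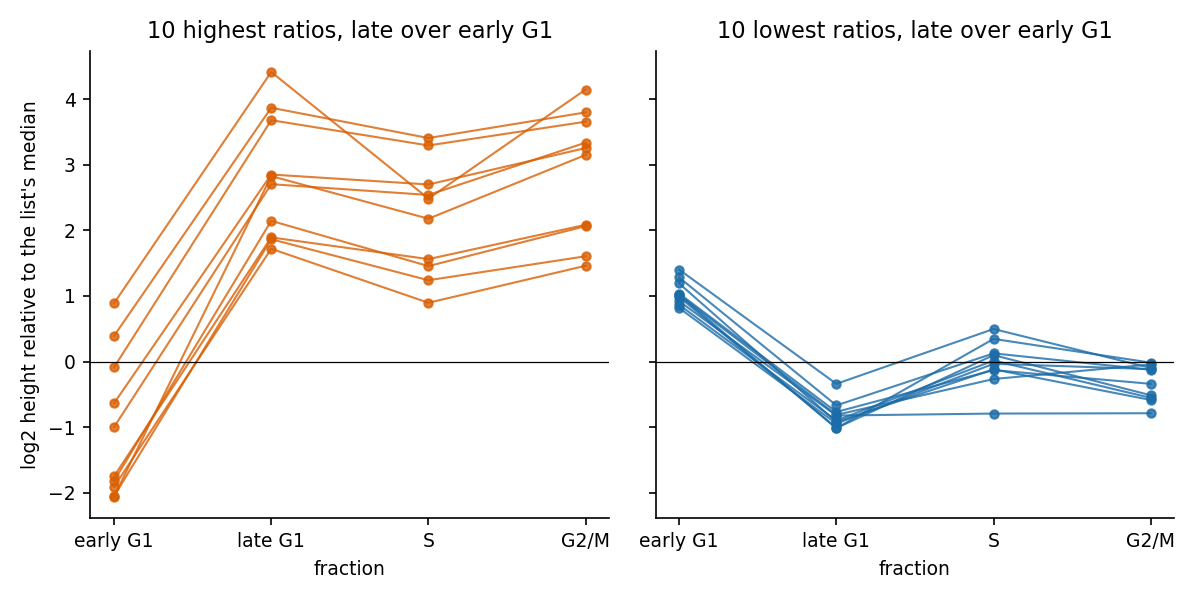
Log2 H3K4me3 height relative to the list's median over regions in all 4 lists, for the regions with the 10 highest (left) and 10 lowest (right) ratios of late over early G1; each line is 1 region. Early G1 is the lowest point of every line on the left and the highest of every line on the right; G2/M is nearer to late G1 than to early G1 on 10 lines of each panel, and S on 9 lines of the left panel and 6 of the right.

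All called regions were followed in the same way. The 2477 regions at least 2-fold higher had a median relative height of 0.996 in late G1 and 0.347 in early G1. Those of them with peaks in all 4 lists had medians of 0.341 in early G1, 0.832 in S phase and 0.900 in G2/M. The 962 regions at least 2-fold lower had 0.742 in late G1 and 1.81 in early G1. Those of them in all 4 lists had medians of 1.65 in early G1, 0.682 in late G1, 0.976 in S phase and 0.811 in G2/M. The sets were chosen by the difference between the G1 heights, so the place of early G1 at one end is fixed in part by that choice.

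Regions with H3K27me3 in late G1, alone or in both G1 fractions, had higher ratios than regions with it in neither. The median ratio was 0.81 at the 332 regions with H3K27me3 in late G1 only, 0.14 at the 400 with it in early G1 only, 0.55 at the 2828 with it in both, and -0.11 at the 12722 with it in neither. Regions at least 2-fold higher numbered 140 of the first group (42.2%), 44 of the second (a smaller share than that of the last), 785 of the third (27.8%) and 1508 of the last (11.9%), against 15.2% of all kept regions. Mean height also differs between these groups, and among the taller regions the medians were 0.76, 0.10, 0.59 and -0.25 in the same order. Among the remaining regions they were 0.82, 0.16, 0.54 and 0.16, so that early G1 only and neither had the same median there. Counted the other way, H3K27me3 in late G1 was present at 37.3% of regions at least 2-fold higher (35.4 to 39.3) and at 2.60% of those at least 2-fold lower (1.69 to 3.81), against 17.2% of those in between. The group with H3K27me3 in late G1 only includes chr10:42382726-42397450 and chr10:42596501-42600675, beside a centromere, with ratios of 2.85 and 3.24. Regions in repeats were not separated from the rest, and peaks that arise whatever the antibody were not told apart.

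H3K27ac went the other way where it was present in early G1. The median ratio was 0.53 at the 567 regions with H3K27ac in late G1 only, -0.36 at the 2732 with it in early G1 only, -0.28 at the 3978 with it in both and 0.32 at the 9005 with it in neither. Among the taller regions these medians were 0.46, -0.37, -0.28 and 0.03 in the same order, so regions with neither lay near 0 there. Regions at least 2-fold lower carried H3K27ac in early G1 at 66.5% (63.4 to 69.5). The share was 44.5% for those in between and 14.3% for those at least 2-fold higher, against 40.6% of all kept regions. Of the 10 highest ratios, 8 carried H3K27me3 in both G1 fractions, CDYL2, FLRT2, ADAM12, DOC2A, PAOX and SMAD6 among them. Of the 10 lowest, none carried it in either and 7 carried H3K27ac in early G1. Among all taller regions, 527 had H3K27me3 in both fractions, 132 in late G1 only, 101 in early G1 only and 7381 in neither. H3K27ac was in both at 3244 of them, in early G1 only at 1825, in late G1 only at 338 and in neither at 2734. Most taller regions thus lacked H3K27me3 and carried H3K27ac in early G1, as most of the 10 lowest did. The marks come from other libraries of the same sorted fractions.

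**Figure D3:**
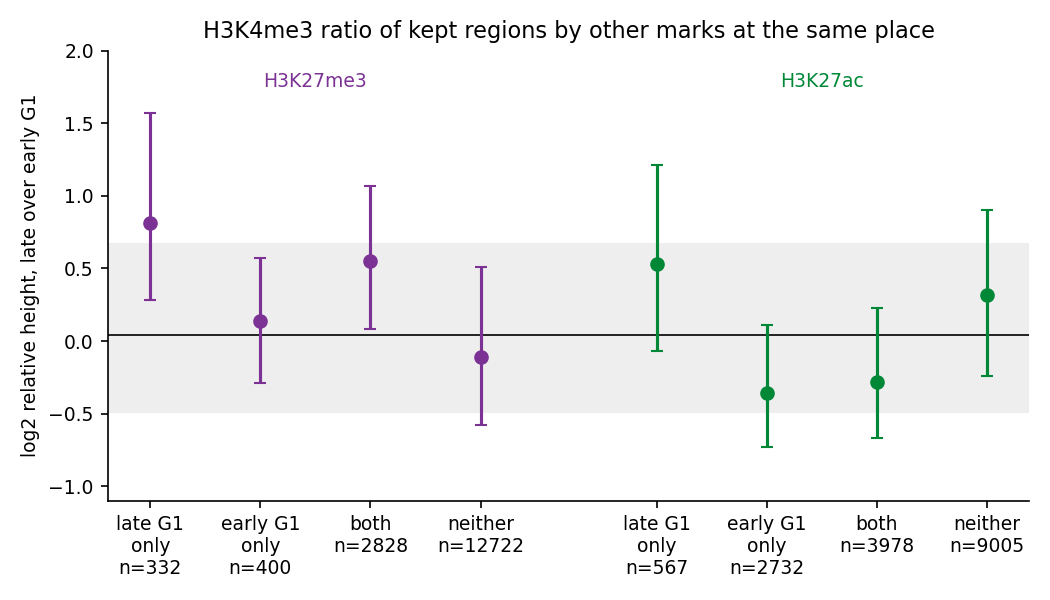
Median (point) and quartiles (bars) of the log2 H3K4me3 ratio of kept regions, late over early G1, by whether H3K27me3 (purple) or H3K27ac (green) peaks overlapped in late G1 only, early G1 only, both or neither; the line and grey band are the median and quartiles of all kept regions. The highest median is that of H3K27me3 in late G1 only, 0.81, and the lowest that of H3K27ac in early G1 only, -0.36.

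The median ratio varied between stretches of the genome. Of 491 windows of 1 Mb that held at least 10 kept regions, 254 had a median ratio above 0 and 237 below 0, over a range of -1.54 to 1.11. The lowest 2 were neighbours on chromosome 19, from 21 to 22 Mb (median -1.54, 12 regions, 9 of them at least 2-fold lower) and from 20 to 21 Mb (-1.41, 13 regions, 8 lower). These megabases are known for their clusters of KRAB zinc finger genes, a family of repressors that recruit heterochromatin. ZNF93, ZNF682 and ZNF738 lie in them. The 10 lowest windows together held 70 of the 962 regions at least 2-fold lower, so most of these regions lay elsewhere. Windows were ranked by their median ratio, which favours a high count of lower regions in them. Over all kept regions, 5.91% were at least 2-fold lower.

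Other windows among the lowest 10 are known for the same gene family on chromosome 19. The window from 58 to 59 Mb had a median of -0.81, with 16 of 43 regions at least 2-fold lower. That from 53 to 54 Mb had -0.73, with 4 of 26 lower, and that from 12 to 13 Mb had -0.72, with 10 of 32 lower. Chromosome 19 supplied 5 of the 10 lowest windows and 48 of the 491. Its median over all 1187 kept regions was -0.07, and its first megabase had a median of 0.48 over 24 regions. Windows near the last ones named varied. The median was -0.25 from 52 to 53 Mb (1 of 20 regions lower), 0.24 from 56 to 57 Mb (0 of 21) and -0.62 from 57 to 58 Mb (1 of 15). Windows were not sorted by the genes they hold, so these values do not describe the gene family as a whole.

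A low window on chromosome 6 covers a distal part of the large cluster of replication-dependent histone genes, which supply histones during S phase, and neighbouring tRNA genes. From 27 to 28 Mb the median was -0.74, and 16 of 49 regions were at least 2-fold lower. At the high end, the window with the highest median was on chromosome 4 from 49 to 50 Mb, next to the centromere, with 1.11. There 11 of 12 regions carried H3K27me3 in late G1, against 19.2% of all kept regions. Next came chromosome 6 from 131 to 132 Mb (1.06, 13 regions) and chromosome 2 from 241 to 242 Mb (1.03, 11 regions). Of their regions, 0 and 3 carried H3K27me3 in late G1, in that order. Among whole chromosomes, chromosome 18 had the highest median, 0.40 over 294 regions, and chromosome 14 the lowest, -0.13 over 568. These windows and chromosomes were picked out by their values.

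**Figure D4:**
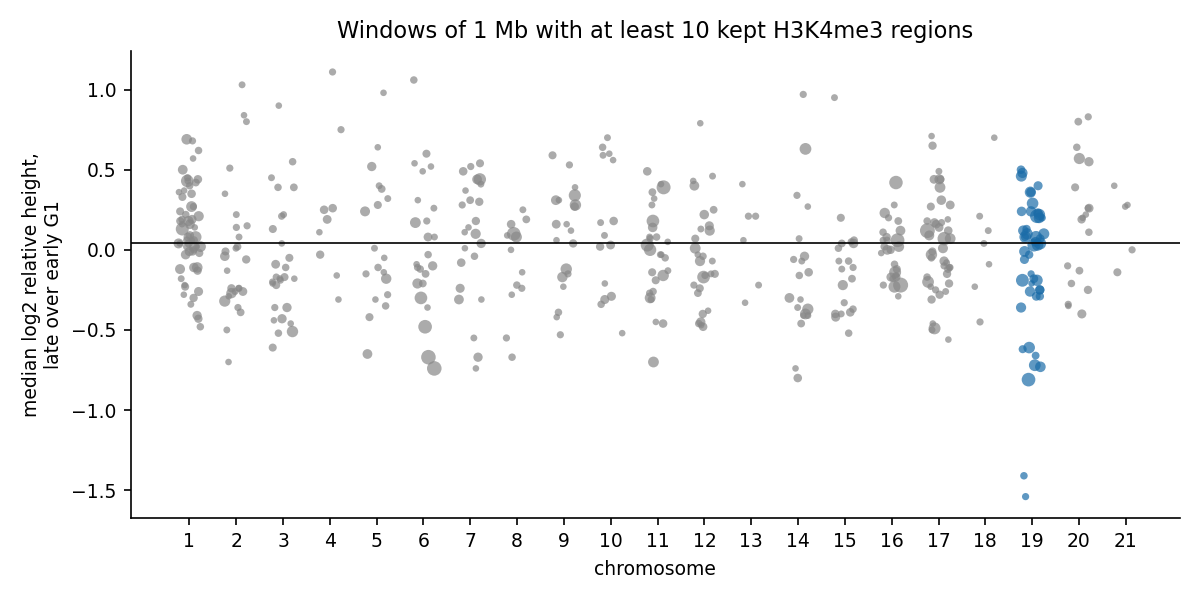
Each point is a window of 1 Mb with at least 10 kept H3K4me3 regions, placed by chromosome (with random sideways scatter) and by the median log2 ratio of late over early G1; point area grows with the number of regions, chromosome 19 is blue, and the line is the median of all kept regions. The lowest points, -1.54 and -1.41, are both on chromosome 19.

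GATA6, a transcription factor of endoderm, is the gene beside one of the 4C viewpoints. The 4C site with the most reads lay at position 19758344 of chromosome 18, and 2 H3K4me3 regions lay within 20 kb of it. The kept one, at chr18:19748926-19749400, had a relative height of 0.670 in late G1 and 0.217 in early G1, a ratio of 1.62. Its peaks were 400 bp wide in late G1 and 250 bp in early G1. Over the cycle it had 0.196 in early G1, 0.612 in late G1, 0.299 in S phase and 0.457 in G2/M, below 1, the median of regions in all 4 lists, in each. The other region, 125 bp long, was lost. Both carried H3K27me3 in both G1 fractions and H3K27ac in neither.

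Kept regions were on the whole narrower in late G1. The median width was 850 bp in late G1 and 1025 bp in early G1, and the median of log2 ratios was -0.23. Width was at least 2-fold greater in late G1 at 565 regions (3.47%) and at least 2-fold smaller at 1998 (12.3%). Large changes in width fell mainly among the low regions, in both directions. Regions at least 2-fold narrower made up 31.1% of the lowest of the 10 bins by mean height and 0.368% of the tallest. Those at least 2-fold wider made up 14.6% of the lowest bin and 0.123% of the tallest. Of the regions at least 2-fold higher, 74.9% were wider, and of those at least 2-fold lower, 97.6% were narrower. Of those in between, 18.9% were wider and 77.5% narrower, and of all kept regions 26.4% were wider. Height and width come from the same peaks and are not independent.

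The broadest regions had high ratios of height. Among the 137 regions with a mean width of at least 4000 bp the median ratio was 0.45, and 27.7% were at least 2-fold higher. Regions with a mean width from 1000 to 2000 bp had a median of -0.17 over 5626 regions, and those under 500 bp had 0.47 over 3917. Most kept regions, 12491 of 16282 (76.7%), had 1 peak in each list, and in 89.3% of these the summits lay at most 250 bp apart. Several early G1 peaks were listed in 21.2% of the regions at least 2-fold higher and in 0.624% of those at least 2-fold lower.

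The largest gains in width were in repeated DNA. One stretch of chromosome 1, known as the array of 5S ribosomal RNA genes, held 3 of the 5. There chr1:228754626-228772300 was covered by a single peak of 17675 bp in late G1, against 13 peaks of 4700 bp in all in early G1, and its relative height was 6.83 in late G1 and 0.943 in early G1. Its neighbours at chr1:228743976-228752700 and chr1:228776801-228781775 likewise had 1 peak each in late G1, against 7 and 4 in early G1. The other gains were beside the centromere of chromosome 10, at chr10:42382726-42397450 (14725 bp in late G1, 1650 bp in early G1) and chr10:42596501-42600675 (4175 bp in late G1, 800 bp in early G1). How reads in repeats were assigned is not stated in the labels.

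The 5 largest losses in width included the start of EDNRB. This gene, which encodes the endothelin receptor that neural crest cells use, had peaks of 2950 bp in 3 pieces in late G1, against 1 peak of 6425 bp in early G1, and its relative height was 0.746 in late G1 and 1.64 in early G1. A region within GCNT2, a branching enzyme of glycan synthesis, measured 75 bp in late G1 and 2750 bp in early G1. Within RBM47, which encodes an RNA-binding protein, the peaks measured 450 bp in late G1 and 2500 bp in early G1. The region at chr6:27774826-27779175, within the histone gene cluster, had 1975 bp in 3 pieces in late G1 and 4350 bp in early G1. The remaining one, at chr6:28742026-28744550 and without a gene name here, had 375 bp in late G1 and 2475 bp in early G1, in 2 pieces each.

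Gained and lost peaks were short and low. Gained peaks had a median width of 175 bp and a median relative height of 0.331 in late G1; lost peaks had 225 bp and 0.203 in early G1. Only 141 of 4382 gained peaks with a height (3.22%) and 7 of 5326 lost peaks (0.131%) reached the median of the kept regions. In deposited units that median was 57.8 in late G1 and 116 in early G1. In the same units the median height was 19.1 for gained and 23.6 for lost peaks. Which class was taller thus turns with the scaling. Kept regions lay within 1 kb of 52.7% of the gained peaks (51.3 to 54.2) and of 41.4% of the lost ones (40.1 to 42.7).

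Presence in the later fractions differed between the classes. Of gained regions, 48.1% had an H3K4me3 peak in S phase (46.7 to 49.5) and 44.1% in G2/M (42.7 to 45.5). Of lost regions, 29.7% had one in S phase (28.5 to 30.9) and 35.7% in G2/M (34.5 to 37.0). Of kept regions, 95.3% had one in S phase and 96.4% in G2/M. The gained peaks near kept regions were found more often in S (56.8%) than in G2/M (34.0%), and those farther away more often in G2/M (55.2%) than in S (39.4%).

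The other marks divided the classes too. H3K27me3 in late G1 overlapped 29.5% of gained regions (28.2 to 30.8), 23.1% of lost regions and 19.2% of kept regions (18.6 to 19.8). H3K27ac in early G1 overlapped 2.68% of gained regions (2.25 to 3.18), 22.2% of lost regions (21.1 to 23.3) and 40.6% of kept regions (39.9 to 41.3). H3K27me3 in early G1 overlapped 19.5% of gained, 25.2% of lost and 19.5% of kept regions. H3K27ac in late G1 overlapped 5.25% of gained, 9.32% of lost and 27.4% of kept regions. Lost regions thus had larger shares of both marks in early G1 than gained ones.

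**Figure D5:**
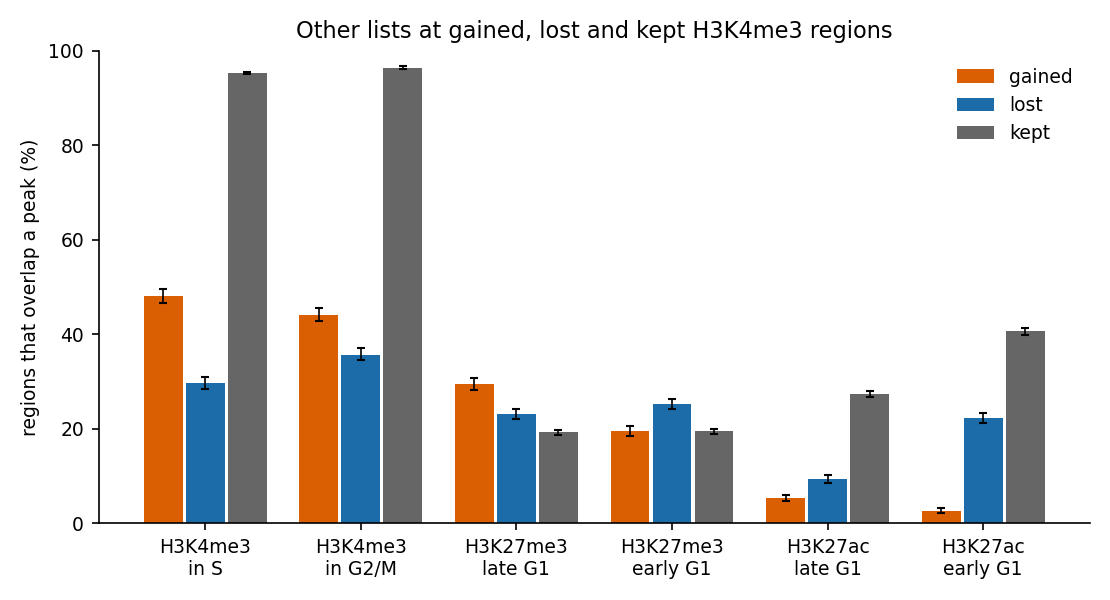
Share of gained (orange), lost (blue) and kept (grey) regions that overlap an H3K4me3 peak in S or G2/M, an H3K27me3 peak or an H3K27ac peak, with exact 95% intervals that cover counting error only. Kept regions are near 95.3% and 96.4% in the later fractions, and gained regions have the smallest share with H3K27ac, 2.68% in early G1.

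Of the 8 tallest gained peaks, 7 lay where H3K27me3 and H3K27ac peaks overlapped. These 7 had relative heights of 4.15 to 8.08 in late G1, the tallest at chr5:9801-12000, and were set aside; most of the tallest that were left lay beside centromeres. The 8 tallest of the rest ranged from 2.96 to 4.32 in relative height. They lay at 4 places on chromosome 16, from chr16:46390751-46396825 to chr16:46428076-46429175, at chr10:42379351-42381050 and chr10:42529101-42530400, at chr11:51586601-51587225, and near the end of chromosome 18 at chr18:107351-109550. All 8 had an H3K27me3 peak in late G1 and none in early G1, and the S and G2/M lists held H3K4me3 peaks at all 8. Among the 141 gained peaks at or above the kept median, 119 carried H3K27me3 in late G1, and 102 of these lacked it in early G1. H3K27me3 in early G1 was present at 17 of the 141. At the 8 peaks named above, both marks were therefore listed in late G1 and missing in early G1. Which of the 141 lie in repeats was not determined, and peaks that arise whatever the antibody were not told apart.

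Of the 8 tallest lost peaks, 5 lay at a known gene start, and all 8 places had peaks in the later fractions. LINC00665, a long noncoding RNA gene, had a relative height of 1.43 in early G1 (chr19:36821576-36822725), and ZNF501, a zinc finger gene, had 1.25 (chr3:44770926-44771675). Next among the named genes were STN1, a subunit of the CST complex that binds telomeres (1.03), SLAIN2, a protein that promotes microtubule growth (1.01), and ZNF69, a zinc finger gene of chromosome 19. Of the 8 tallest, 7 carried H3K27ac in early G1 and none carried H3K27me3 in either G1 fraction. Over all lost regions, H3K27ac in early G1 was at 22.2%, and H3K27me3 at 25.2% in early G1 and 23.1% in late G1. Most lost regions were low, and most taller kept regions also carried H3K27ac in early G1 and lacked H3K27me3. All 8 had peaks again in the S list and the G2/M list.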

How the data were processed

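H3K4me3 ChIP-seq peak lists of 2 sorted fractions were analysed, with the other H3K4me3 lists and the H3K27me3 and H3K27ac lists of the G1 fractions. The submitters' processing notes list Bowtie 0.12.7 and 2 builds, hg19 and mm9, without a role; positions were read as hg19. The names of the deposited files contain the word hpeak, the name of a peak caller; its settings, and whether inputs were used, are not given in those sources. In each list the authors deposited a width in bp, a signal value read here as the peak height, and a negative score; all heights on chromosomes coded 22 to 24 are 0 and were treated as missing. The deposited 4C table gives counts per restriction site, used for 1 position. Every per-sample column of that table was matched to a sample, but those of the SOX17 viewpoint entered no result.

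Peaks were matched by at least 1 bp with Python 3.11.15, numpy 2.4.6, pandas 2.3.3 and scipy 1.17.1; figures used matplotlib 3.10.9. A region's height is that of its tallest peak and its width the sum of its peaks. Intervals of shares are exact Clopper-Pearson at 95% and treat regions as independent. The matching and ratios were tested on simulated data. No p-value was computed.

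The text names the 10 highest and 10 lowest ratios among kept regions whose mean height is at or above the median, the 8 tallest gained and 8 tallest lost peaks outside places where H3K27me3 and H3K27ac overlap, and the 5 largest gains and losses of width. Of these 46 regions, 24 were given a gene from its known hg19 position, since no hg19 annotation was at hand; the RefSeq table (GRCh38.p14) placed each of the 24 genes on the chromosome of its region, and its positions were not used. Names across the genome were also tried, by matching the spacing of peaks to that of GRCh38.p14 gene starts, and results for the planned gene lists and for GC content were seen. They were left out because such a match amounts to converting between builds. The members and named regions were chosen with earlier results of these data known, and the windows and the sets by fold were added after the data were seen.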

Additional observations from a re-analysis of the deposited data

How the results depend on the processing

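With 1 library per fraction and unknown read depth, no alternative measures replicate error. No paired analysis was possible because each fraction had 1 library. Late G1 peaks kept, gained and early G1 peaks lost numbered 20811, 4842 and 5739. They were 10848, 1979 and 1762 with peaks at or beyond the median score, and 12016, 1103 and 3049 with peaks of at least 500 bp. Joining peaks at most 500 bp apart left 2187 gained and 3190 lost. Requiring an overlap of 0.5 of the shorter peak, or equal numbers by height, kept all 3 counts within 1.5 times.

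The median height ratio was -0.97 with heights as deposited, where every ratio shifts by -1.01; it was -0.08 with ranks matched and -0.19 in the taller regions. Regions at least 2-fold higher were 1.87% with heights as deposited, 12.1% with ranks matched, 16.0% with mean height weighted by width and 9.24% in the taller regions. Those at least 2-fold lower were 48.6%, 9.97%, 7.14% and 6.82% in that order. The excess of higher over lower regions thus depends on the scaling. All 20 named ratios kept their sign in 40 values with ranks matched or weighted heights; PLCB4, SMAD6 and the chromosome 2 region moved with ranks matched, to 2.52, 1.68 and 2.07.

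The median width ratio was -0.20 by the span of a region and -0.19 in the taller regions. Regions at least 2-fold wider were 3.14% by span, 3.95% with 1 peak in each list and 0.516% in the taller regions; those narrower were 11.1%, 13.9% and 1.81%. H3K27me3 in late G1 within 500 bp was found at 34.7% of gained, 29.6% of lost and 22.3% of kept regions, and H3K27ac in early G1 at 7.21%, 28.6% and 44.6%. Without places where these marks overlap, H3K27me3 was at 28.1% of gained and 18.1% of kept regions. With an overlap of 0.5 of the shorter peak, gained regions were in S at 44.0% and in G2/M at 41.0%, and lost regions at 27.1% and 32.8%.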
